A study of Mus musculus with 12 samples.

Results

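The 9 genes described here are Ucp3, Ucp2, Ppara, Angptl4, Cpt1a, Pdk4, Acot1, Acot2 and Plin5, a group built around uncoupling protein 3 (Ucp3) and the nuclear receptor PPAR-alpha (Ppara). They were taken by gene name from a deposited table of 55679 genes, and all 9 were present. Ucp3 was selected on its higher value in the hearts of Adam19 knockout (KO) mice, and the other 8 as known genes of the PPAR-alpha and fasting response, when results for these data were already known. The question was whether the difference in Ucp3 was shared by the other 8 genes and by further PPAR-alpha target and fasting genes, in the heart and in the lung. All values of the 9 genes in KO against wildtype (WT) hearts are therefore given as a description, with no p-value.

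RNA came from the whole lung and whole heart of 6 adult male mice on the 129S6/SvEvTac background, 3 WT and 3 KO, which gave 12 libraries. The KO mice were homozygous for an Adam19 allele in which a tdTomato reporter takes the place of a pair of exons. Every cell carries the allele, so an effect in the heart need not arise in the heart. Heart and lung of a mouse have the same replicate number. The organs were taken after a pentobarbital overdose and bleeding and were frozen at once, and no agent was being tested. Feeding state and hour of collection are not given in the sources used here. The mouse identifiers have prefixes of which none is shared by WT and KO mice, so prefix and genotype cannot be told apart.

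PPAR-alpha is a transcription factor that binds fatty acids and, with a retinoid X receptor partner, switches on genes of fatty acid uptake, transport and oxidation. In the heart, which burns mostly fatty acids, it is active whenever fat supply rises, as in fasting. Ucp3 is a carrier of the inner mitochondrial membrane of heart and skeletal muscle whose mRNA is known to rise with fasting and with fatty acid load. Pdk4 blocks the entry of glucose carbon into the citric acid cycle, Cpt1a admits long-chain fatty acids to mitochondria, Angptl4 inhibits lipoprotein lipase, Acot1 and Acot2 split fatty acyl-CoA, and Plin5 coats lipid droplets.

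In GRCm39 Ucp3 occupies positions 100122136 to 100135976 of chromosome 7, on the forward strand, and Ucp2 begins 6078 bases after its end, at 100142055. Acot2 (84034428 to 84040647) and Acot1 (84056256 to 84065145) lie 15608 bases apart on the forward strand of chromosome 12. Angptl4 (33992724 to 34000804) and Plin5 (56418446 to 56424610) are on the reverse strand of chromosome 17 and Pdk4 (5483097 to 5496339) on that of chromosome 6. Ppara (85618656 to 85687067) is on the forward strand of chromosome 15 and Cpt1a (3371853 to 3437996) on that of chromosome 19. None is on chromosome 11, which carries Adam19. The start regions of the 3 genes whose KO hearts all lay above the WT hearts are shown because PPAR-alpha and its partner bind pairs of the half-site AGGNCA, and each half-site match on either strand is in capitals (TGNCCT where it lies on the other strand). Each runs 5′ to 3′ on the strand of the gene, from 250 bases before to 20 bases after the start of the canonical transcript.
Ucp3, chr7:100121886-100122155, forward strand: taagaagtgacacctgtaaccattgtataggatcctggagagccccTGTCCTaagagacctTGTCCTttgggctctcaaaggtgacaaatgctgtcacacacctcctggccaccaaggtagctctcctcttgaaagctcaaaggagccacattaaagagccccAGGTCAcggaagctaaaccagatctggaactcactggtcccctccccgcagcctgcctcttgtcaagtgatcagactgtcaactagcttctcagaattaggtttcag
Cpt1a, chr19:3373021-3373290, forward strand: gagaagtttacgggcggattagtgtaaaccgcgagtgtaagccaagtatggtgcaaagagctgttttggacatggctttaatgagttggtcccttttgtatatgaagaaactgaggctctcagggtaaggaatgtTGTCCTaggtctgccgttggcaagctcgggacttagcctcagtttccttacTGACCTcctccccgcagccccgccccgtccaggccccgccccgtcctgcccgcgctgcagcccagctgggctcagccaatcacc
Angptl4, chr17:34000785-34001054, reverse strand: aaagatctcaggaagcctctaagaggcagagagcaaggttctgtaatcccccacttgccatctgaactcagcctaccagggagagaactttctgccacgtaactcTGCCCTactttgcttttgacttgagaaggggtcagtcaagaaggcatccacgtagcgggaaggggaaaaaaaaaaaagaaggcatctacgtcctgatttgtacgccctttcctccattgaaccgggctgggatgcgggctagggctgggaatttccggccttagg
Ucp3 held 3 half-site matches, Cpt1a 2 and Angptl4 1. Among the other members Acot1 held 2, Ucp2, Pdk4, Acot2 and Plin5 held 1 each and Ppara held 0. Of 21757 start regions of the same length, 53.4% held at least 1 match and 5.66% at least 3. A match is a description of the letters only.

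The full pair, AGGNCANAGGNCA, was searched on both strands from 5000 bases before to 5000 bases after each start. It was found near 3580 of 21757 genes (16.5%) and near none of the 9. With the less strict AGGNNANAGGNCA, which contains every match of the first motif and was tried after it had given none, 6449 genes (29.6%) and 1 of the 9 had a match. The pair of Angptl4 sites is shown with 7 bases on each side and the motif in capitals, each on the strand that reads the motif.
Angptl4, intron, 2527 bases after the start, chr17:33998264-33998290, forward strand: ggaaagtAGGAGAAAGGTCActggggg
Angptl4, 4398 bases before the start, chr17:34005189-34005215, reverse strand: gaagataAGGGAAGAGGGCAgggggag
No match says only that these letters are not in this window.

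The libraries held 17674800 to 35862900 estimated reads. The WT hearts of replicates 2 and 3 were the shallowest hearts, at 20381300 and 18392300 against 31784700 to 35862900 in the other 4, so heart values are also given without them below. Gene values are the authors' estimated read counts on a log2 scale, with a constant added for each library. Adam19 was at 9.17, 9.25 and 10.27 in WT hearts and 6.67, 6.01 and 6.56 in KO hearts, and at 9.14, 9.41 and 9.12 in WT lungs and 4.44, 3.21 and 3.50 in KO lungs, so every library matched its label. The summed level of 10 heart muscle markers lay between 21.01 and 21.25 (log2) in hearts and between 13.66 and 14.92 in lungs. That of 10 lung epithelium markers lay between 18.98 and 19.25 in lungs and between 12.55 and 13.29 in hearts. A gene was called where its adjusted p in limma was under 0.05, its fold change at least 1.5 and its higher group mean at least 6. These limits were met by 13 of 15303 genes (0.085%) in the heart and by 11 of 16551 (0.0665%) in the lung. In bulk tissue, fewer cells of a type and less RNA per cell cannot be told apart.

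Ucp3 was at 8.96, 8.29 and 8.24 in the WT hearts and at 9.999, 10.83 and 10.41 in the KO hearts. Every KO heart lay above every WT heart, by more than 1 log2 unit between the nearest pair. These values rest on 531, 181 and 173 estimated reads in WT and 1103, 1907 and 1459 in KO. The group means were 8.50 ± 0.40 (SD, n = 3) and 10.41 ± 0.42 (SD, n = 3), a log2 difference of 1.92 with a standard error of 0.25, or 3.78-fold. Ucp3 was the 1 member among the 13 called heart genes. It was selected on these values, so the call is a description and no test. Among the called heart genes Ucp3 lay nearest to the limit on adjusted p. The next gene outside was Fkbp10, a collagen chaperone, at 8.50 in WT and 9.44 in KO hearts (adjusted p = 0.0997 in limma). Mt2, of the fasting list below, had the same adjusted p. Over 15 alternative analyses the log2 difference of Ucp3 lay between 1.46 and 2.15. The limits were not met without the WT heart of replicate 2 or 3 or the KO heart of replicate 2 or 3, where the log2 difference was 1.82, 1.79, 1.71 and 1.92. Nor were they met without a variance trend, with limma-voom, with summed transcripts, or with the shallow WT hearts of replicates 2 and 3 both left out. In that last case the log2 difference was 1.46, with the lone WT heart assumed to vary like the KO hearts.

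**Figure D1:**
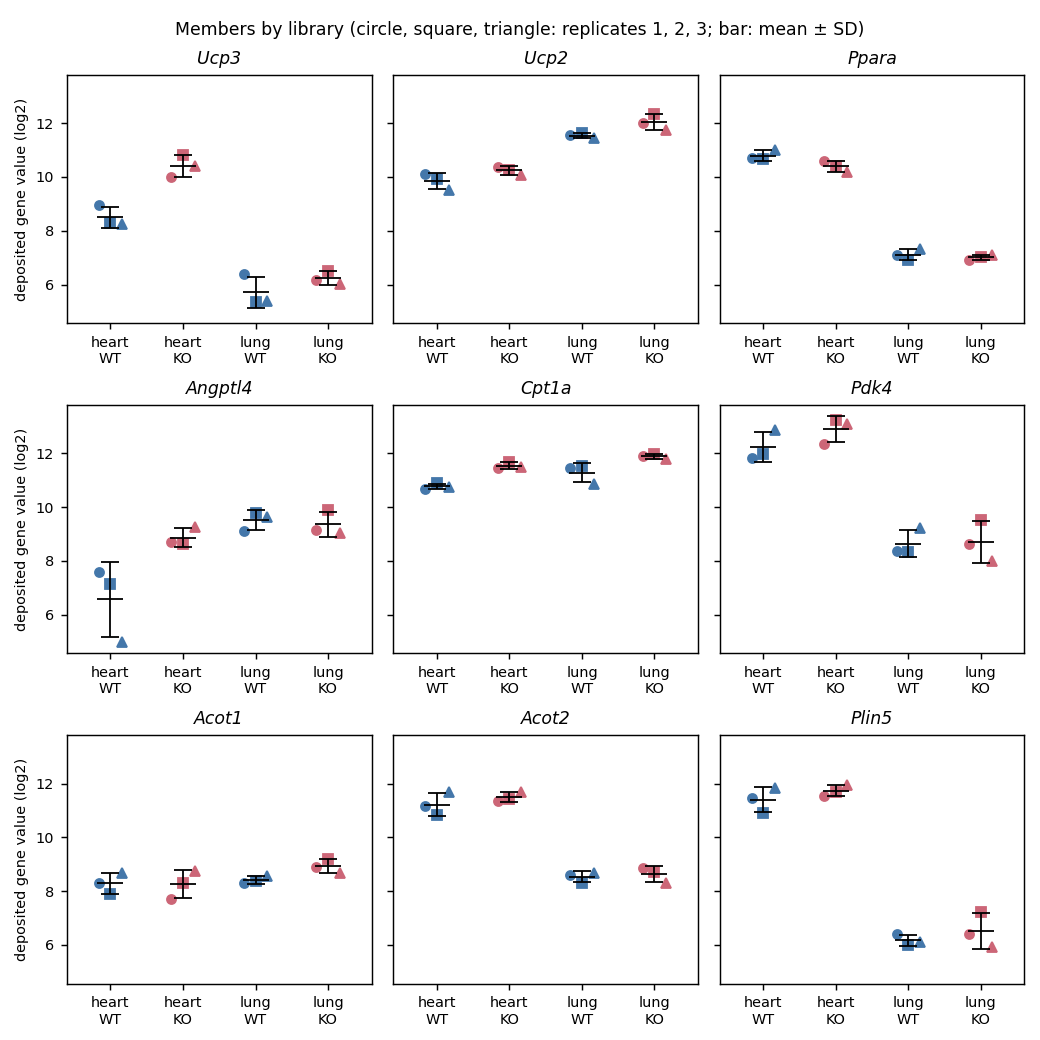
Deposited gene value (log2) of each of the 9 genes in every library, by tissue and genotype, with circles, squares and triangles for replicates 1, 2 and 3 and bars for the mean ± SD (n = 3). In the heart the KO points lie above all WT points for Ucp3, Angptl4 and Cpt1a and below them for Ppara, and the lung points of Ucp3 overlap.

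The full-length Ucp3 transcript (ENSMUST00000032958.14) carried most reads, with 539.9, 180.0 and 134 estimated reads in WT hearts and 879, 1911 and 1350 in KO hearts. A second coding transcript (ENSMUST00000107059.2) was estimated above 0 in 1 WT heart and 2 KO hearts. The retained-intron transcript (ENSMUST00000128044.8) had 7.61, 0 and 0 reads in WT hearts and 24.4, 51.3 and 48.0 in KO hearts, so it too was higher in every KO heart. Transcript reads are not scaled between libraries, and the 2 WT hearts at 0 are the shallow ones.

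Ucp2, the neighbouring gene and a mitochondrial carrier found in most tissues, was at 10.10, 9.93 and 9.50 in WT hearts and at 10.38, 10.26 and 10.08 in KO hearts. The lowest KO heart lay just below the highest WT heart, and the log2 difference was 0.40 with a standard error of 0.17. Without the shallow hearts it was 0.14. Ucp3 thus differed by 1.92 and the gene beside it by 0.40 on the log2 scale, a gap that was not tested because Ucp3 was selected on one of the values.

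Ppara itself was lower in KO hearts. It was at 10.69, 10.66 and 11.02 in WT and at 10.61, 10.39 and 10.17 in KO hearts. All 3 KO hearts lay below all WT hearts, although the nearest pair almost met, and the log2 difference was −0.40 with a standard error of 0.16. Ppara was the 1 of the 9 genes whose KO hearts all lay below the WT hearts, as they did for 5.23% of all heart genes tested.

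Angptl4 showed the largest heart difference of the 9. It was at 7.59, 7.14 and 4.98 in WT hearts and at 8.71, 8.64 and 9.27 in KO hearts. All KO hearts lay above all WT hearts, and the WT heart of replicate 3 stood far below the others. The log2 difference was 2.30 with a standard error of 0.58, and Angptl4 was not called. It was 1.51 without the WT heart of replicate 3, and 1.28 without replicates 2 and 3. An Angptl4 transcript annotated for nonsense-mediated decay (ENSMUST00000173869.8) had 144, 33.4 and 8.81 estimated reads in WT and 336, 292 and 475 in KO hearts. Its full-length coding transcript (ENSMUST00000002360.17) had 58.3, 41.5 and 9.86 reads in WT and 95.1, 119 and 167 in KO hearts. The first had more reads than the second in the KO hearts and the WT heart of replicate 1, and fewer in the WT hearts of replicates 2 and 3.

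Fat cells express Angptl4, and their markers varied among the hearts. The summed level of 10 adipocyte markers was 13.40, 12.15 and 10.94 (log2) in WT hearts and 13.69, 11.66 and 12.61 in KO hearts, so the groups overlapped. The WT heart lowest in Angptl4 was also lowest in these markers, whereas the KO heart of replicate 2, at 8.64 for Angptl4, was below WT replicates 1 and 2 in the markers. In KO hearts 8 of the 10 markers were higher, with a median log2 difference of 0.39, and their part in the Angptl4 difference was not tested. Brown fat expresses Ucp3 as well, and the summed level of 10 brown adipocyte markers was 13.82 to 14.36 in WT and 13.89 to 14.37 in KO hearts. That sum came mostly from Cox8b, at 12.47 to 13.29 over the hearts, and Kcnk3, at 12.63 to 13.15. It therefore says little about the other markers. Of the 10, Ucp1, the defining brown fat protein, was at 11.61, 9.21 and 4.58 in WT and 11.75, 7.65 and 10.05 in KO hearts. Of 8 brown adipocyte markers tested, 7 were higher in KO hearts, with a median log2 difference of 0.34. The part of brown fat cells in the Ucp3 difference was not tested. Skeletal muscle expresses Ucp3 too, and the summed level of 15 skeletal muscle markers was 15.63 to 16.45 in WT and 16.09 to 16.46 in KO hearts. That sum came mostly from Ckm, at 15.34 to 16.32 over the hearts, and says little about the other markers. Among the 15, the actin Acta1 was at 12.55, 12.87 and 13.14 in WT and 12.83, 14.31 and 12.68 in KO hearts. It was highest in the KO heart of replicate 2, which was also highest in Ucp3. Mybpc2 was highest in that heart too, at 10.87, whereas Tnni2 and Mylpf were lowest there, at 4.49 and 1.78. The fast myosin Myh4 was at 0.86 to 3.09 over the hearts. The part of skeletal muscle cells in the Ucp3 difference was not tested.

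Cpt1a was at 10.68, 10.88 and 10.76 in WT hearts and at 11.46, 11.68 and 11.48 in KO hearts. The groups were well apart and tight, with SDs of 0.10 and 0.12 (n = 3 each). The log2 difference was 0.77 with a standard error of 0.12, or 1.70-fold, and it stayed between 0.70 and 0.86 over 15 alternative analyses. Its relative Cpt1b, named after its value was seen, had higher values, with means of 14.36 in WT and 14.43 in KO hearts. The log2 difference of Cpt1b was 0.075 (adjusted p = 0.928 in limma). Ucp3, Angptl4 and Cpt1a were the 3 of 9 genes with every KO heart above every WT heart, beside 7.82% of all heart genes tested, and nothing is read from that count because the group was built around Ucp3 in this comparison.

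Pdk4, the fasting-induced kinase of pyruvate dehydrogenase, was at 11.84, 11.98 and 12.88 in WT hearts and at 12.34, 13.25 and 13.10 in KO hearts. The groups overlapped, since the WT heart of replicate 3 lay above the KO heart of replicate 1, and the log2 difference was 0.66 with a standard error of 0.31. The lipid droplet protein Plin5 was at 11.47, 10.92 and 11.83 in WT and 11.55, 11.70 and 11.95 in KO hearts, with a log2 difference of 0.33 ± 0.22 (SE).

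Acot2, the mitochondrial thioesterase, was at 11.17, 10.82 and 11.67 in WT and 11.35, 11.42 and 11.70 in KO hearts, and differed by 0.27 ± 0.21 (SE) on the log2 scale. The cytosolic Acot1 was at 8.29, 7.90 and 8.66 in WT and 7.72, 8.31 and 8.75 in KO hearts, a log2 difference of −0.03 ± 0.28 (SE). Both genes overlapped between genotypes. Their transcripts share 1274 nucleotides at 95.06% identity, and stretches of Acot3, Acot4, Acot5 and Acot6 are at least 90.04% identical to them, so reads may have been divided between these genes. The log2 of the summed level of Acot1 and Acot2 was 11.40 ± 0.42 in WT and 11.64 ± 0.21 in KO hearts (SD, n = 3 each).

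**Figure D2:**
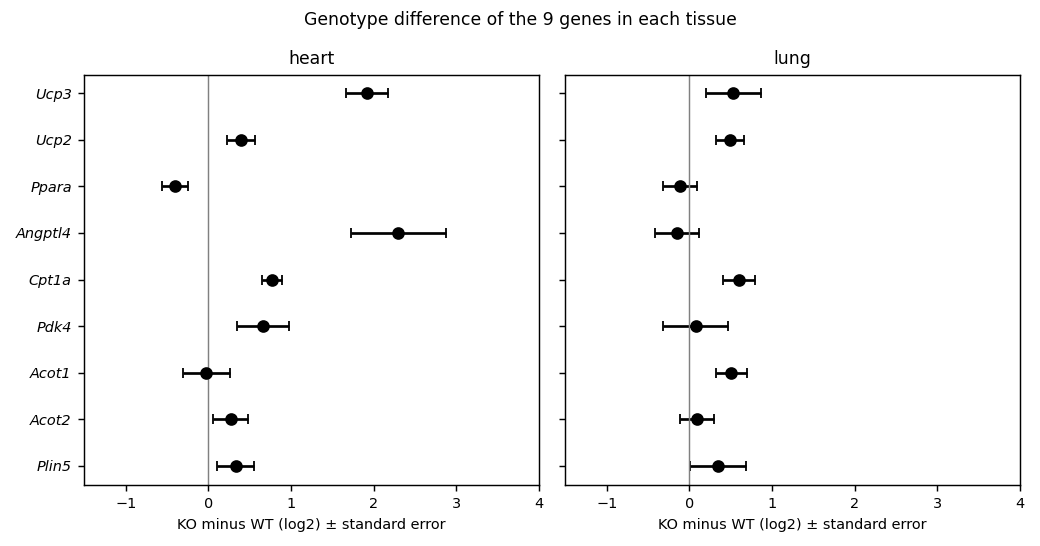
KO minus WT difference (log2) of the 9 genes with its standard error, heart on the left and lung on the right. In the heart Angptl4 (2.30) and Ucp3 (1.92) lie apart from the other 7 genes, which span −0.40 to 0.77, and in the lung all 9 lie between −0.15 and 0.60.

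The lung was not used to select the genes, so they were tested there. Of the 9 genes 7 were higher in KO lungs and none was called, with adjusted p-values in limma of 0.806 to 0.979. Ucp3 was low in the lung, at 6.39, 5.35 and 5.39 in WT and 6.18, 6.51 and 6.02 in KO lungs, from 33.2 to 139.9 estimated reads. The WT lung of replicate 1 lay among the KO lungs. The log2 difference was 0.53 with a 95% interval of −0.23 to 1.29 (unadjusted p = 0.148 in limma).

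Cpt1a, Ucp2 and Acot1 had unadjusted p-values under 0.05 in the lung and were higher in all KO than in all WT lungs. Cpt1a was at 11.47, 11.52 and 10.87 in WT and 11.89, 11.97 and 11.80 in KO lungs, a log2 difference of 0.60 (95% interval 0.16 to 1.04, unadjusted p = 0.0135 in limma). Ucp2 was at 11.54, 11.62 and 11.46 in WT and 12.01, 12.33 and 11.75 in KO lungs, a difference of 0.49 (0.10 to 0.89, unadjusted p = 0.0207). Acot1 was at 8.30, 8.38 and 8.58 in WT and 8.89, 9.20 and 8.69 in KO lungs, a difference of 0.51 (0.08 to 0.93, unadjusted p = 0.0256).

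These 3 of 9 genes stand beside 3.15% of all lung genes with an unadjusted p under 0.05 and a higher KO mean, and beside 6.41% with every KO lung above every WT lung. None of the 9 was lower at that p or by that order, as 2.77% and 6.4% of all lung genes were. The count fell to 1 without the KO lung of replicate 1, to 1 without that of replicate 2 and to 1 where transcripts were summed. The adjusted p of all 3 genes was 0.806. The summed level of Acot1 and Acot2 was 9.48 ± 0.15 in WT and 9.79 ± 0.25 in KO lungs (SD, n = 3 each), with an exact two-sided permutation p of 0.2, where 0.1 is the smallest that 3 against 3 allows.

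The other members did not separate in the lung. Pdk4 was at 8.36, 8.34 and 9.22 in WT and 8.63, 9.53 and 7.98 in KO lungs. Angptl4 was at 9.10, 9.80 and 9.64 in WT and 9.16, 9.90 and 9.04 in KO lungs, with a log2 difference of −0.15 beside 2.30 in the heart. Plin5 differed by 0.35, Acot2 by 0.10 and Ppara by −0.11, each with an adjusted p of at least 0.870. Adipocyte markers were 10.93 to 12.48 in WT and 11.40 to 12.97 in KO lungs as a summed log2 level.

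Between tissues the differences of Ucp3, Ucp2, Pdk4, Acot2, Plin5 and Ppara were larger, in either genotype, than those between genotypes in either tissue. Those of Cpt1a were smaller, at 0.51 in WT and 0.34 in KO mice on the log2 scale against 0.77 and 0.60 between genotypes, and Angptl4 and Acot1 showed no such order. Ucp3 was 6.91-fold higher in heart than lung in WT mice and 18.1-fold higher in KO mice, given without a test because the KO hearts selected it. Among the other 8, Pdk4, Acot2, Plin5 and Ppara were higher in the heart in both genotypes and Ucp2 higher in the lung. Plin5 was 37.6-fold higher in WT hearts than WT lungs, Ppara 12.8-fold, Pdk4 12.1-fold and Acot2 6.44-fold, each called in limma, and Ucp2 was 3.24-fold higher in WT lungs.

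Ucp3 is left out of the calls between organs because the KO hearts selected it. Of the other 8, Pdk4, Acot2, Plin5 and Ppara were called lower in the lung in each genotype. The share of all genes called lower was 20.1% in WT and 20.9% in KO mice. Called higher in the lung were Ucp2 and Angptl4 in WT and Ucp2 and Acot1 in KO mice, beside 29.3% and 28.7% of all genes. Angptl4 was 7.69-fold higher in the lung in WT mice and 1.41-fold higher in KO mice, where it was not called (adjusted p = 0.419 in limma). Acot1 was higher in the lung by 0.13 log2 units in WT and by 0.67 in KO mice, and the second difference was not called in 5 of 9 alternative analyses, among them those without KO replicate 1 or 2 of either organ. Cpt1a was 1.42-fold higher in WT lungs, which is under the fold limit, and was called, at 0.72 log2 units, without the WT lung of replicate 3.

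Levels were compared between genes per kilobase of transcript, as scaled estimated reads. In WT hearts the order was Pdk4 at 1355 ± 569.9, Plin5 at 1335 ± 402, Acot2 at 1022 ± 308, Ucp2 at 776 ± 148, Ppara at 659 ± 89.2, Acot1 at 290.4 ± 80.3, Cpt1a at 268 ± 18.8, Ucp3 at 130.2 ± 44.5 and Angptl4 at 53.7 ± 38.0 reads per kilobase (SD, n = 3 each). The first 4 overlapped with their neighbours, as did Ucp2 with Ppara and Acot1 with Cpt1a, and every WT heart had more Ppara than any had Acot1. All 3 WT hearts had less Ucp3 than any had Cpt1a and more than any had Angptl4.

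In KO hearts Ucp3 stood at 494 ± 164 reads per kilobase (SD, n = 3), between Ppara at 505 ± 73.1 and Cpt1a at 455 ± 39.1, and did not differ from either beyond the spread. In the lung Ucp3 was the least abundant of the 9 per length, at 20.3 ± 8.87 in WT and 26.4 ± 3.46 in KO lungs, and Ucp2 was the most abundant, at 2435 ± 222 and 3489 ± 685 reads per kilobase.

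**Figure D3:**
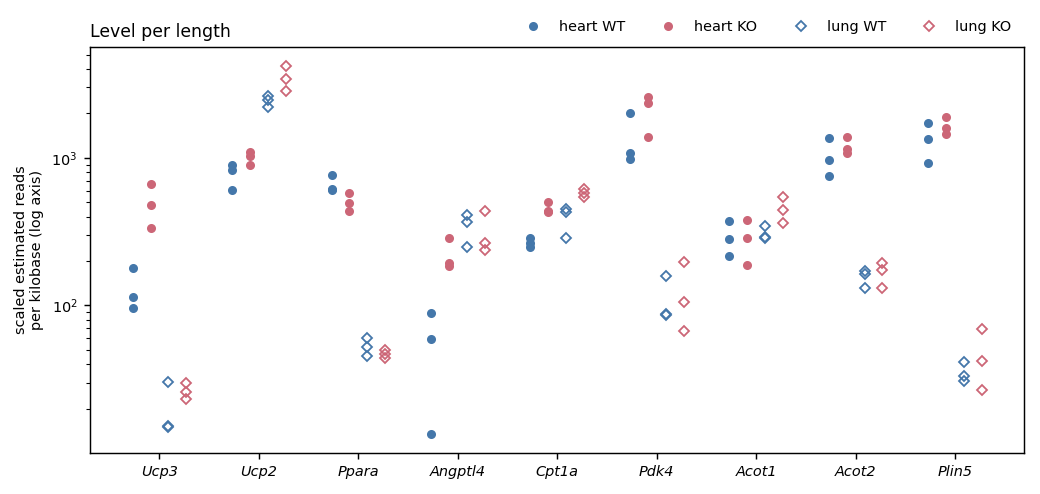
Scaled estimated reads per kilobase of transcript (log axis) of the 9 genes, with filled circles for hearts and open diamonds for lungs, blue for WT and red for KO, and 1 point for each library. Ucp3 lies at 95.9 to 180.5 in WT hearts, 336 to 664 in KO hearts and 14.9 to 30.5 in the lungs.

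Further PPAR-alpha targets were taken from a list of 46 genes that leaves out the 9, of which 40 passed the filter on low values in the heart. In KO hearts 32 of the 40 were higher and 8 lower. Their median log2 difference was 0.09, beside 0.03 over all 15303 heart genes, of which 55.0% were higher, and it was −0.011 without the KO heart of replicate 3. None was called (lowest adjusted p = 0.411 in limma). At an unadjusted p under 0.05, 4 were higher and 0 lower, beside 4.76% and 2.69% of all heart genes.

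Txnip, an inhibitor of glucose uptake, was at 13.93, 14.06 and 13.24 in WT and 14.47, 14.99 and 14.64 in KO hearts, all KO above all WT, with a log2 difference of 0.95 (adjusted p = 0.411 in limma). Plin2, a lipid droplet coat, was at 10.77, 9.79 and 10.27 in WT and 10.85, 10.75 and 10.91 in KO hearts, a difference of 0.56 (adjusted p = 0.641), and its WT heart of replicate 1 overlapped the KO hearts. Hilpda, an inhibitor of fat breakdown named after its value was seen, differed by 0.46. The 40 genes ranged from −0.31 to 0.96, so none reached the log2 difference of Ucp3. Ucp3 was selected on that difference, so the comparison is a description and no test.

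Partners and coactivators of PPAR-alpha were lower in most cases. Of 18 such genes 3 were higher and 15 lower in KO hearts, with a median log2 difference of −0.25 and 0 called. At an unadjusted p under 0.05, 4 were lower and 0 higher, beside 2.69% and 4.76% of all heart genes, and the same 4 had every KO heart below every WT heart, beside 5.23%. Ppargc1a, the coactivator of mitochondrial biogenesis, was at 11.21, 11.56 and 11.43 in WT and 10.92, 10.998 and 10.90 in KO hearts, a difference of −0.46 (adjusted p = 0.481 in limma). Perm1, a muscle regulator of the same program, differed by −0.43 (adjusted p = 0.625). Ncoa1 and Lpin1, both coactivators and named after their values were seen, differed by −0.35 and −0.28. Ppard, the most widely expressed PPAR, had a difference of −0.61 with overlapping groups (adjusted p = 0.740).

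**Figure D4:**
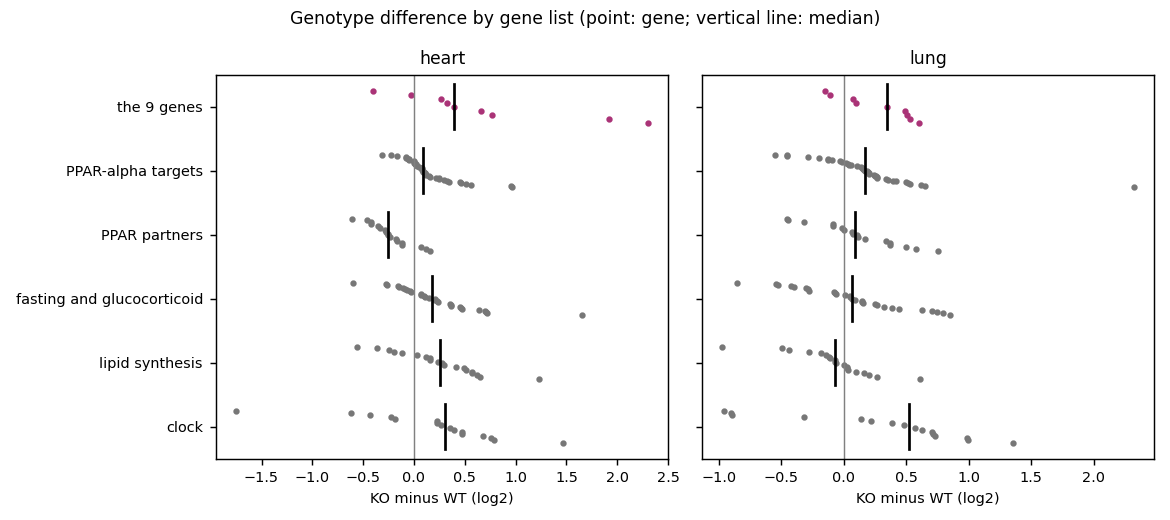
KO minus WT difference (log2) of each tested gene by list, heart on the left and lung on the right, with a vertical line at the median of each list. In the heart the medians are 0.40 for the 9 genes, 0.09 for PPAR-alpha targets, −0.25 for PPAR partners, 0.18 for fasting and glucocorticoid genes, 0.26 for lipid synthesis and 0.31 for clock genes.

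Of 30 genes induced by fasting or glucocorticoids, 20 were higher in KO hearts, with a median of 0.18 and 0 called. At an unadjusted p under 0.05, 7 were higher and 0 lower, beside 4.76% and 2.69% of all heart genes, and 7 had every KO heart above every WT heart, beside 7.82%. The metallothionein Mt2 was at 5.43, 5.19 and 5.598 in WT and 7.06, 7.40 and 6.72 in KO hearts, with a log2 difference of 1.65 (adjusted p = 0.0997 in limma, and 0.0648 to 0.636 over the alternatives). Cebpb, a factor of the acute and fasting response, and Gadd45a, a stress gene, differed by 0.71 (adjusted p = 0.481) and 0.72 (adjusted p = 0.600).

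Lipid synthesis genes, which fasting is known to lower, were higher in 15 of 20 cases in KO hearts, with a median of 0.26 and 0 called. Dgat2, which makes triglyceride, was at 12.80, 12.27 and 12.26 in WT and 13.21, 12.98 and 13.01 in KO hearts, a difference of 0.62 (adjusted p = 0.481 in limma). Scd1 and Elovl6, a desaturase and an elongase, had differences of 1.23 and 0.64 with overlapping groups. Scd1 was at 14.10, 12.73 and 10.70 in WT and 14.90, 12.15 and 14.15 in KO hearts. Like the summed adipocyte markers, Scd1 and Elovl6 were highest in the KO heart of replicate 1 and lowest in the WT heart of replicate 3. Thrsp and Pnpla3 belong to the lipid synthesis and the adipocyte list alike. The part of fat cells in these differences was not tested. Without the WT heart of replicate 3, which was lowest in adipocyte markers, Elovl6 was at −0.36. At an unadjusted p under 0.05, beside those shares of all heart genes, 2 of the 20 were higher, Dgat2 and Insig1, a brake on sterol synthesis, and 1 was lower, the malic enzyme gene Me1 at −0.36, which was named after its value was seen.

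Clock genes were included because several members are known to vary with the hour. Of 16 tested, 11 were higher and 5 lower in KO hearts, and 7 higher and 2 lower had an unadjusted p under 0.05, beside 4.76% and 2.69% of all heart genes, with 0 called. Per1 is in the clock and the fasting list alike and is counted among the 7 higher of each. It differed by 0.35 and was named after its value was seen. The core clock gene Arntl was at 6.60, 5.66 and 7.89 in WT and 4.69, 4.94 and 5.27 in KO hearts, a difference of −1.75 (adjusted p = 0.508 in limma), and Ciart, a clock repressor, was at 7.95, 8.22 and 5.94 in WT and 9.004, 9.30 and 8.19 in KO hearts, a difference of 1.46 (adjusted p = 0.634). Dbp, an output gene, differed by 0.79 (adjusted p = 0.481), and Clock, the other gene lower at that p and named after its value was seen, by −0.62. The WT mouse of replicate 3 had the highest Arntl and the lowest Ciart in both organs, at 7.79 and 4.84 in its lung. Its heart was not apart from WT replicate 2 in Ucp3, at 8.24 and 8.29. Without it Arntl differed by −1.16, Ciart by 0.75 and Ucp3 by 1.79, and the part of the clock genes in the difference of the members was not tested.

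**Figure D5:**
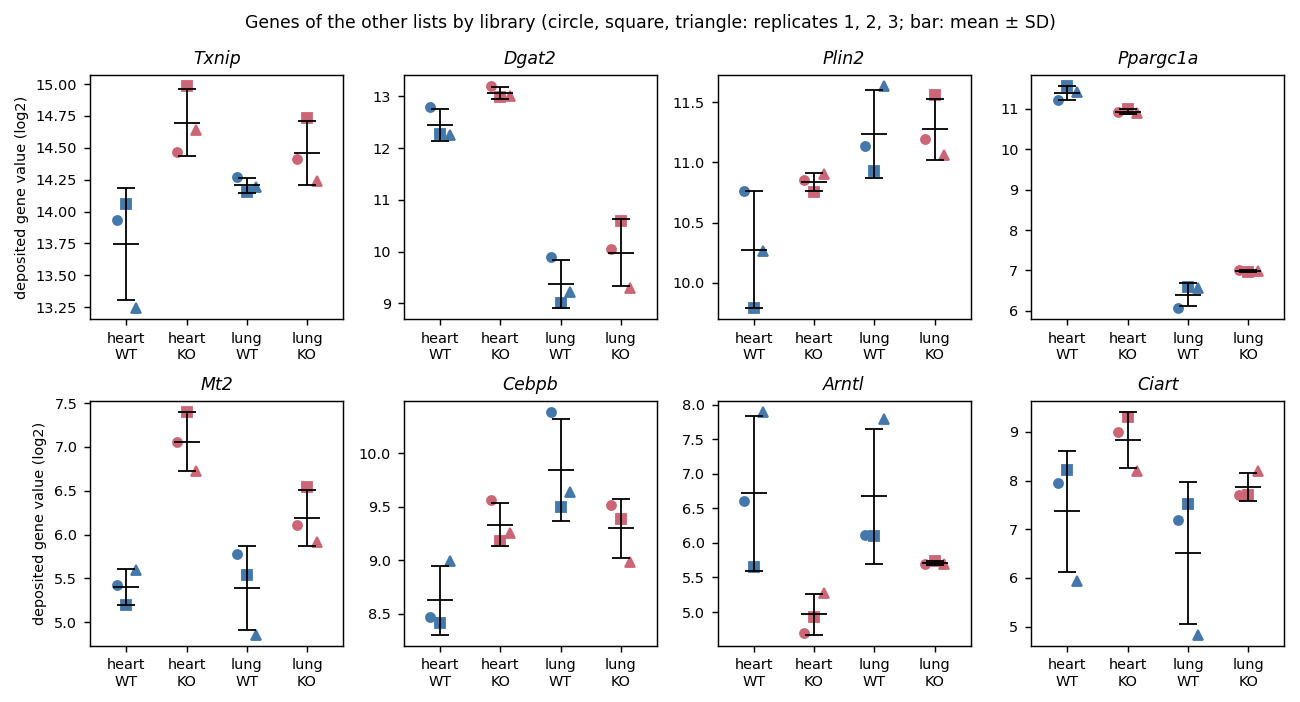
Deposited gene value (log2) of 8 genes of the other lists in every library, with circles, squares and triangles for replicates 1, 2 and 3 and bars for the mean ± SD (n = 3), each panel on its own axis. KO hearts lie above all WT hearts for Txnip, Dgat2, Mt2 and Cebpb and below them for Ppargc1a and Arntl, and the WT triangle is the highest for Arntl and the lowest for Ciart in both tissues.

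The relatives of the members gave 0 called genes in either tissue in limma, and in the heart 6 higher and 0 lower entries with an unadjusted p under 0.05, beside 4.76% and 2.69% of all heart genes. In the lung there were 1 higher and 3 lower, beside 3.15% and 2.77% of all lung genes. Plin2 and Dgat2 in the heart and Cpt2 and G0s2 in the lung are among these entries and are also counted in other lists. By family, in the order below, 9, 8, 10, 9, 7 and 13 genes were tested in the heart. In the lung 9, 7, 10, 9, 7 and 13 were tested. Over 15 alternative analyses of the heart and 14 of the lung, limma-voom among them, no gene of any of these lists other than Ucp3 was called. Among 9 further mitochondrial carriers and uncoupling proteins 8 were higher in KO hearts (median 0.19), and Ucp1 had the largest difference at 1.35 with overlapping groups, which was −0.60 without the WT heart of replicate 3. Other acyl-CoA thioesterases had a median of 0.10 over 8 genes, with Acot7 at 0.33. The pyruvate dehydrogenase complex and its kinases and phosphatases had a median of −0.04 over 10 genes, with the phosphatase Pdp2 at 0.36. Other angiopoietin-like and lipase genes had 0.14 over 9 genes, with Angptl7 at 1.07 (0.23 without the WT heart of replicate 3), and other carnitine system genes 0.05 over 7, with the carnitine transporter Slc22a5 at 0.31. Lipid droplet and lipolysis genes had 0.29 over 13, with Dgat2 as above.

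In the lung the 46 PPAR-alpha targets gave 39 tested genes, 29 of them higher in KO, with a median log2 difference of 0.17 beside 0.01 over all 16551 lung genes, of which 51.6% were higher. None was called, and 3 were higher and 2 lower at an unadjusted p under 0.05, beside 3.15% and 2.77% of all lung genes. The transferase Cpt2, partner of Cpt1a, differed by 0.62 (adjusted p = 0.806 in limma), the fatty acid carrier Fabp3, abundant in heart muscle, by −0.55 (adjusted p = 0.828), and Fabp4, a fat cell carrier, by 0.65 with overlapping groups. Also at an unadjusted p under 0.05, and named after their values were seen, were the glycerol channel Aqp7 at 2.32, with a KO mean of 5.69, and the lipase inhibitor G0s2 at −0.45. Heart muscle markers were lower in KO lungs in 9 of 10 cases (median −0.58), and their part in the Fabp3 difference was not tested.

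The other lists had lung medians between −0.07 and 0.52 and 0 called genes. Partners of PPAR-alpha were higher in 11 of 18 cases, and Ppargc1a was at 6.06, 6.59 and 6.56 in WT and 7.01, 6.96 and 6.99 in KO lungs, a difference of 0.58 (adjusted p = 0.806 in limma) against −0.46 in the heart. Ppard and Rxra, the retinoid receptor partner, differed by −0.44 and 0.37. Fasting and glucocorticoid genes were higher in 18 of 29 cases, with Zbtb16 at 0.85, Mt2 at 0.79 and the cell cycle inhibitor Cdkn1a at −0.86. At an unadjusted p under 0.05, where 3.15% of all lung genes were higher and 2.77% lower, stood 1 higher and 0 lower of the partners, 2 and 2 of the fasting genes (Klf9, at −0.40, being the other one lower), 0 and 0 of the lipid synthesis genes and 3 and 1 of the clock genes (Hlf, Per3 and Tef against Nfil3, the last 3 and Klf9 named after their values were seen). Lipid synthesis genes were higher in 8 of 20, with Dgat2 at 0.61, Scd1 at −0.49 and Insig1 at −0.28. Clock genes were higher in 12 of 16, with Ciart at 1.35, Bhlhe41 at 0.99 and Hlf at 0.98, which were 0.52, 0.39 and 0.63 without the WT lung of replicate 3. In the families the largest differences were Ucp1 at 0.82, Acot7 at −0.63, Pdk2 at 0.72, the lipase Lipg at −0.55, Cpt2 and Dgat2.

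The genes whose heart values most resembled those of Ucp3 were found by Pearson's r over the 6 hearts among 12054 other genes with a group mean of at least 6. They were Dnajc24 (r = 0.996), Lfng (0.994), Airn (0.991), Slc25a42 (0.981) and Zfp593 (0.980). Among the members Cpt1a stood highest, with r = 0.932 and rank 62, then Angptl4 with 0.851 and rank 268, Ucp2 with 0.749 and Pdk4 with 0.599, and Ppara was at −0.824. Over deviations from the genotype means B4galt4, Cdkl1, Lgals3, Gm3587 and Mtpap came first, with r of 0.997 to 0.993. There Angptl4 had r = 0.444, Ucp2 0.350, Acot1 0.308, Cpt1a 0.172, Plin5 0.142, Pdk4 0.094, Acot2 −0.046 and Ppara −0.487. These are descriptions over 6 libraries that share genotype, depth and mice, and no p is given.

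Other cell types were followed through their markers. In KO hearts all 10 lung epithelium markers were higher (median 0.71, 0 with an unadjusted p under 0.05), red cell markers were higher in 1 of 7 cases (median −0.28), macrophage markers in 7 of 9 (median 0.13), endothelial markers in 7 of 10 (median 0.09), brown adipocyte markers in 7 of 8 (median 0.34), skeletal muscle markers in 5 of 8 (median 0.05) and heart muscle markers in 4 of 10 (median −0.05). In KO lungs skeletal muscle markers were higher in 0 of 9 cases (median −1.25), with the WT lung of replicate 2 at a summed 12.33 against 8.49 to 9.49 in the other lungs, and red cell markers in 0 of 8 (median −1.08). That WT lung was not high in Ucp3, at 5.35. Lung epithelium markers were higher in 5 of 10, macrophage markers in 5 of 10, endothelial markers in 7 of 10, adipocyte markers in 8 of 10 and brown adipocyte markers in 3 of 7. The part of these cells in the differences of the members was not tested.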

How the data were processed

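Reads of 12 stranded total RNA libraries, from the lung and heart of 3 WT and 3 KO mice, were quantified by the authors with Salmon against GENCODE vM33 (mm39). The authors deposited gene and transcript tables on a log2 scale. Transcript values are log2(1 + estimated count), and gene values carry in addition a constant for each library, from −0.63 to 0.80. Zeros stay 0. Per the submitters' notes, cutadapt, STAR and limma 3.42.2 were also used. Columns of the authors' own comparisons were not used, and 0 columns belonged to other samples.

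Gene values were compared with limma 3.58.1 (R 4.3.3, variance trend, Benjamini-Hochberg adjustment), within each tissue over 6 libraries and between tissues in 1 model of 4 groups. The filter on low values asked for 3.46, which is log2(1 + 10), in at least 3 libraries (2 where libraries were left out within a tissue). All 9 members passed it in every comparison. Called genes had an adjusted p below 0.05, changed 1.5-fold or more and had a group mean of 6 or more. Within a tissue the p-values measure the spread between 3 mice a group, moderated by limma over all genes. Between organs the spread was pooled over the 4 groups. Both organs of a mouse were treated there as independent, except with the replicate block described below. Lung and heart of a mouse are paired by the mouse identifier. Over 17666 genes their deviations from the group means correlated at 0.049, 0.136 and −0.024 in WT and 0.020, −0.068 and −0.036 in KO mice. Depth was 17674800 to 35862900 estimated reads, and 17 reads of Angptl4 in 1 WT heart was the lowest count of a member in the heart.

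Members and gene lists were chosen with earlier results of these data known. The genes named are the 9 members, Adam19, from each list any called gene and the 3 largest differences at a group mean of at least 6 (1 for the families of relatives), the 5 genes most like Ucp3 by each measure, and a few that the text says were named after their values were seen. A gene that this rule names is not reported here. Marker levels are log2 of summed values. Per-kilobase levels divide scaled transcript reads by the lengths of the transcripts. Positions and sequences were read from GRCm39 with GENCODE vM39, and near-identical copies were searched with blastn 2.17.0 (at least 90% identity over at least 300 bases). The fit was tested on simulated data.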

Additional observations from a re-analysis of the deposited data

Results flagged for a closer look

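No member was flagged. The genes below come from the other lists and are not a full count of such genes. Every KO heart lay on one side of the WT heart mean, and every KO lung on the other side of the WT lung mean. The difference between the tissues was not tested. Ppargc1a, a coactivator of PPAR-alpha, differed by −0.46 (log2, KO minus WT) in the heart and by 0.58 in the lung. Cebpb, a transcription factor of the fasting list, differed by 0.71 in the heart and −0.54 in the lung. The lipid synthesis regulator Insig1 was at 0.58 in the heart and −0.28 in the lung, and the thioesterase Acot7 at 0.33 and −0.63. Slc25a27, of the list of mitochondrial carriers and named after its values were seen, was at 0.60 and −0.56. Its KO and WT libraries did not overlap in either tissue. The share of all genes with such opposite differences is not given.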

How the results depend on the processing

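With at least 10 estimated counts asked of every library, 7 heart and 1 lung genes were called in place of 13 and 11. With total-count scaling the median of all lung genes rose to 0.29 and that of PPAR-alpha targets to 0.46, and the lung differences of Angptl4, Ppara and Insig1 turned to 0.13, 0.17 and 0.0041. With summed transcripts 1 member had an unadjusted p under 0.05 in the lung in place of 3. Without heart WT replicates 2 and 3, chosen after seeing the data, the Ucp3 heart difference was 1.46, and those of Elovl6, Ppard, Scd1 and Ucp1 turned to −1.09, 0.19, −0.36 and −1.79. The cause was not tested in any of these cases.

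Leaving out 1 library at a time gave 10 to 21 called heart genes (21 without KO replicate 2), 10 to 14 called lung genes, 8410 to 8775 called genes between WT organs and 8409 to 8622 between KO organs. The Ucp3 heart difference ranged from 1.71 to 2.15, the median of PPAR-alpha targets from −0.011 to 0.18 in the heart and from 0.074 to 0.28 in the lung, and the members at an unadjusted p under 0.05 in the lung from 1 to 3. Signs turned in the heart for Acot1 (−0.27 to 0.24, without WT replicate 3 or KO replicate 1, and above 0 with total-count scaling or summed transcripts), Elovl6 (−0.36 to 1.51, without WT replicate 3 or KO replicate 1) and Ucp1 (−0.60 to 2.92, without WT replicate 3), and in the lung for Pdk4 (−0.33 to 0.44, without WT replicate 1 or 2 or KO replicate 2), Acot2 (−0.025 to 0.26, WT 2 or KO 1), Plin5 (−0.0037 to 0.64, KO 2), Angptl4 (−0.42 to 0.016, KO 3), Ucp1 (−0.42 to 1.92, WT 2 or KO 2) and Insig1 (−0.50 to 0.054, WT 3). Among uncalled genes of the other lists that moved by more than 1.5 times were Scd1 (0.32 to 2.02) and Ppard (−1.005 to −0.25) in the heart and Fabp4 (0.12 to 1.11), Pdk2 (0.22 to 1.02) and Rxra (0.047 to 0.60) in the lung. Between WT organs Acot1 ranged from −0.060 (without heart WT replicate 2) to 0.32, and it was −0.092 with median-of-ratios scaling.

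With the mouse as a replicate block, 8681 genes in WT and 8719 in KO mice were called between organs, against 8726 and 8761 without the block, and no call of a member changed. The block cannot be used between genotypes, which have different mice.

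The deposited values were adjusted in a way the sources used here do not describe, so the members' values rest on that scaling. Ucp3 in the lung and Angptl4 in 1 WT heart rest on few reads. With 3 mice a group, and 2 shallow WT hearts, the interval of many members' differences takes in 0.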
